A study of Homo sapiens with 20 samples.

Results

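Dense clusters of RNA polymerase II (POL2) sites were 440 stretches of the genome of PC-3 cells, an established human prostate cancer cell line, in which 5 or more POL2 binding sites lay close together. They were selected on the POL2 data themselves. Summits, the single bases at which a called peak is highest, were pooled from 6 POL2 ChIP-seq lists on chromosomes 1 to 22 and X. Summits 250 bp or less apart were joined into 34426 sites, of which 17443 were seen in at least 2 libraries. Neighbouring sites 12.5 kb or less apart were then stitched into 10700 regions. The 440 regions with at least 5 sites made up 4.11% of these and held 3365 sites (19.3%) on 9.18 Mb, or 0.303% of those chromosomes. In what follows they are called dense regions, and the sites of the 10260 remaining stitched regions are called other sites.

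Chromatin was immunoprecipitated in wild-type (WT) PC-3 cells and in PC-3 cells in which SLK, a serine/threonine kinase gene, had been knocked out (SLK-KO, also labelled PSD10), with antibodies against c-Myc (MYC) and POL2. Each antibody had 3 libraries per genotype, and the 6 IgG and 2 Input libraries of the series were not used here. Both groups were PC-3 cells in standard culture with no treatment given, and the labels do not say whether SLK-KO is a single clone. The labels call the replicates biological without saying how they were separated, so the p-values below measure the spread between these libraries.

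POL2 transcribes protein-coding genes and most genes of long non-coding RNAs, microRNAs and small nucleolar RNAs. It often pauses just after the transcription start site (TSS), which gives a sharp peak there, and on strongly transcribed genes it also covers the gene body. Enhancers, stretches of DNA that raise the transcription of a gene at a distance, carry POL2 as well. MYC is a transcription factor that binds the E-box CACGTG with its partner MAX, mostly at promoters that already carry POL2, and genes for ribosomal proteins, nucleolar factors and nucleotide and polyamine synthesis are among its best known targets.

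The 3 regions with the most sites outside one intergenic stretch held the hosts of well-studied microRNAs, and their mature sequences are shown because several share a seed, the bases 2 to 8 that pair with a target. Dense regions overlapped 68 of 1877 microRNA genes (3.62%, against 4.22% of protein-coding genes) in 58 regions. Of these genes, 65 were matched by symbol to RefSeq (GRCh38.p14). MIR639, MIR6847 and MIR7705 had no match. The sequences run 5′ to 3′ with the seed in capitals. The let-7 pair, the miR-29 pair, the miR-221 and miR-222 pair, and miR-93 with miR-106b each had 1 seed in common.
let-7a-5p: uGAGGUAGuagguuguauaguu
let-7b-5p: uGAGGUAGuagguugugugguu
miR-29a-3p: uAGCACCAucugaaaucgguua
miR-29b-3p: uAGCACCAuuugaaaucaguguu
miR-221-3p: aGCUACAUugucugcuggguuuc
miR-222-3p: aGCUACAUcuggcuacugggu
miR-93-5p: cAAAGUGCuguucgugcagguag
miR-106b-5p: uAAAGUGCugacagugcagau
miR-25-3p: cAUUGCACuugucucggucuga
miR-100-5p: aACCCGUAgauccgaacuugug
miR-125b-5p: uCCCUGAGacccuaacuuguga

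The next sequences are those of a strong site in 4 regions, to show what lay under a leading summit of a cluster. In each region it was the best-ranked site whose window overlaps no annotated UTR. Rank 1 is the best-scored summit of a library. Each window is 201 bp of GRCh38, plus strand, centred on the site. Capitals mark matches to 5 short motifs, each searched on both strands. The AP-1 motif was searched as TGACTCA and the E-box, to which MYC binds, as CACGTG. The motif of the TEAD factors was searched as GGAATG. For the box found upstream of some start sites the letters were TATAAA, and for the ETS factors, which bind many promoters, they were CCGGAAG. The MALAT1 window held TATAAA, while the other windows held no match, which says only that these letters were not in them.
MIR100HG (chr11:122156938-122157138): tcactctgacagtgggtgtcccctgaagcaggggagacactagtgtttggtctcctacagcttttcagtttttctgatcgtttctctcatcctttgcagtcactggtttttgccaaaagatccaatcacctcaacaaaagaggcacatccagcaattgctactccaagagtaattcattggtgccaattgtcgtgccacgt
LINC-PINT and LINC00513 region (chr7:130912075-130912275): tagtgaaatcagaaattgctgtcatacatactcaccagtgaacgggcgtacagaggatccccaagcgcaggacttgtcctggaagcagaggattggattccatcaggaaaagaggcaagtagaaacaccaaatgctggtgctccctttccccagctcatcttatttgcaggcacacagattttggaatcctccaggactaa
MIRLET7BHG (chr22:46069862-46070062): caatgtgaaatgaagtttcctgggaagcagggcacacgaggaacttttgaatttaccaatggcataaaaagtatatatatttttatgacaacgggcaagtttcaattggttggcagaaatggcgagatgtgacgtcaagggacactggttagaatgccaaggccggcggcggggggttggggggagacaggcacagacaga
MALAT1 (chr11:65498992-65499192): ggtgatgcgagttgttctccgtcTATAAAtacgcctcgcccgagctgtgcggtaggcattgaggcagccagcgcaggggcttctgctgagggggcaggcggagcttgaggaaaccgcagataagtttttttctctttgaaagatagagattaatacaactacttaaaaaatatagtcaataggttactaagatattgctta

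The region with the most sites, chr11:122085345-122180488, was also the longest, with 41 sites over 95.1 kb. It lay in MIR100HG, the host transcript of miR-100, let-7a-2 and miR-125b-1, and took in BLID. Libraries of WT had a summit at 25, 9 and 15 of the 41 sites and libraries of SLK-KO at 23, 20 and 21. The groups overlapped, and no MYC list had a summit there. A single site was present in all 6 libraries, with ranks of 778, 983 and 1257 in WT and 555, 892 and 727 in SLK-KO, and 23 of the 41 sites were seen in only 2 libraries. The cluster thus had 1 strong site that every library shared and many weak ones that few libraries shared.

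In the next 2 microRNA hosts, too, over 50% of the sites were seen in only 2 libraries. A region of 25 sites over 52.4 kb (chr7:130865642-130918084) took in LINC-PINT and LINC00513, non-coding RNAs, with MIR29A and MIR29B1. WT libraries had a summit at 15, 4 and 9 of its sites and SLK-KO libraries at 16, 11 and 12. Of these sites 14 were seen in only 2 libraries and 0 in all 6, and the best rank per library was 346, 239 and 2061 in WT and 388, 485 and 397 in SLK-KO. MIRLET7BHG, the host of let-7a-3 and let-7b, lay in a region of 24 sites (chr22:46054031-46116754), 13 of them seen in only 2 libraries. Here the counts were 10, 4 and 11 in WT and 15, 18 and 12 in SLK-KO, so that the lowest SLK-KO value lay above the highest WT value. In lists cut to their best 5015 summits, the length of the shortest, the order was not kept, with 4, 4 and 5 sites in WT and 2, 4 and 2 in SLK-KO. MIR221 and MIR222 shared a region of 9 sites on chromosome X (chrX:45743514-45775611), whose best ranks were 274, 249 and 266 in WT and 232, 3266 and 231 in SLK-KO. None of these 4 regions had a MYC summit in WT, and in SLK-KO only MIRLET7BHG had any, 1 in each of 2 lists.

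**Figure D1:**
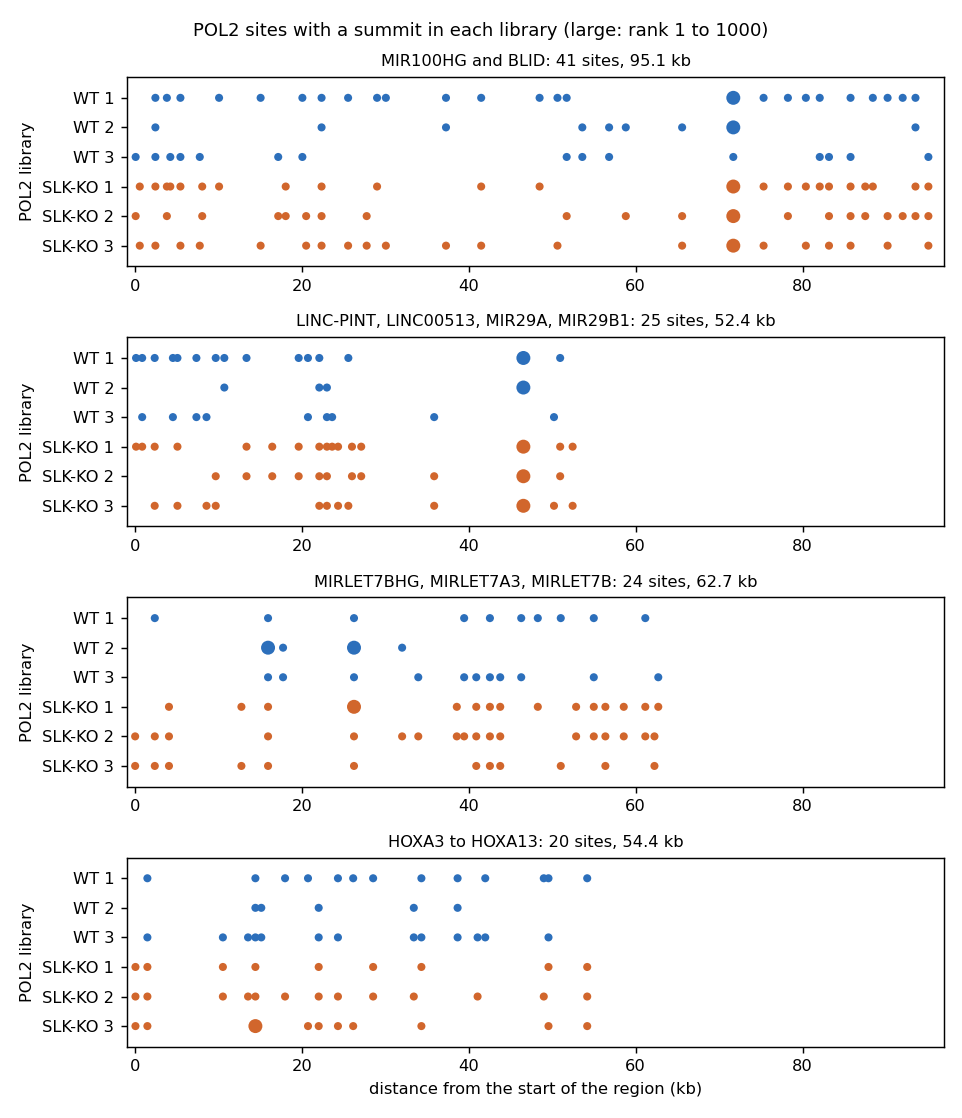
POL2 sites of 4 dense regions, 1 row per POL2 library (WT in blue, SLK-KO in orange), against the distance from the start of the region in kb. A point is a site with a summit in that library and a large point is a summit of rank 1 to 1000. MIR100HG has 41 sites and 1 present in all 6 libraries, and most points are small.

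Long clusters also covered gene families and adhesion genes. The S100A16, S100A14, S100A13 and S100A1 genes, which encode calcium-binding proteins, shared a region with SNAPIN, CHTOP and ILF2 (chr1:153595891-153670966, 23 sites, 75.1 kb). WT libraries marked 13, 4 and 13 of its sites and SLK-KO libraries 17, 14 and 18. At that equal list length both means were 21.7% of sites (SD 4.35 in WT and 0 in SLK-KO, n = 3 each). HOXA3, HOXA7, HOXA9, HOXA10, HOXA11 and HOXA13, homeobox factors that set positional identity, were overlapped by a region of 20 sites with MIR196B and HOTTIP (chr7:27151076-27205488). WT marked 13, 5 and 13 of them and SLK-KO 9, 13 and 10, with overlap. BCAR3, an adaptor of adhesion signalling, held 22 sites within the gene, with 10, 5 and 9 in WT and 13, 12 and 13 in SLK-KO. At equal list length the counts were 2, 5 and 3 in WT and 2, 2 and 2 in SLK-KO. PDLIM7 and DBN1, which bind actin, lay in a region of 20 sites with GRK6 and PRR7, and ADGRF1, an adhesion G-protein-coupled receptor, in a region of 19. CCDC57, SLC16A3 (a lactate transporter) and CSNK1D shared a region of 20 sites. Of regions that overlapped no coding gene, the largest had 27 sites over 74.0 kb on chromosome 8, with STMN2 as the nearest coding gene, 219798 bp away. Its best rank was 256, 226 and 198 in WT and 427, 415 and 351 in SLK-KO. A region of 18 sites on chromosome 18 overlapped LINC02582, with 6 of the sites intergenic and best ranks of 218, 208 and 200 in WT and 285, 409 and 335 in SLK-KO.

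Most dense regions were far smaller. Sites per region had a median of 6, 137 regions had 5 sites, 148 had 6 or 7, 108 had 8 to 11 and 47 had 12 or more. Lengths ran from 2.82 to 95.1 kb around a median of 18.8 kb. Neighbouring sites lay a median of 1844 bp apart, against 1749.5 bp in stitched regions of 2 to 4 sites. Gaps under 1 kb made up 27.3% in dense regions and 34.2% in those smaller ones, so close spacing was not particular to dense regions. Such gaps are within the 200 to 1000 bp to which chromatin was sheared per the labels. Just outside the limit, 256 regions had 4 sites and a median length of 10.2 kb, against 12.9 kb for regions of 5 sites. The most closely packed were UHRF1, a factor in the upkeep of DNA methylation, with 5 sites in 2.82 kb, a stretch 890 bp from a TSS of PYGM with 5 in 3.26 kb, and RHOB, a small GTPase, with 5 in 3.38 kb. RHOB was among the even ones, with best ranks of 354, 355 and 242 in WT and 350, 240 and 348 in SLK-KO, whereas the best ranks at UHRF1 were 3905 or worse in the 5 libraries with a summit there.

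Where the sites lay differed from the rest of the POL2 map. Of dense sites, 37.0% were within 1 kb of a coding TSS, against 66.7% of other sites, and 29.0% were in introns of coding genes, against 12.1%. UTRs took 5.85% against 1.25%, and intergenic DNA 13.0% against 9.88%. A single coding gene was overlapped by 45.7% of the regions, 2 or more by 47.5% and none by 6.82%, and in 154 regions every site lay within 1 kb of the span of a single coding gene. In those 154 regions the sites covered a median of 25.4% of a gene whose median length was 67.7 kb, with 39.9% of the sites within 10 kb of the gene's start. No site near a coding TSS was found in 50 regions. Chromosome 20 had the most dense regions for its genes, 4.58 per 100 coding genes with 28.3% of its sites, and chromosome 9 the fewest, 0.644 per 100 with 5.80% of its sites.

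Dense sites were less often shared between libraries. The regions were chosen by counting sites seen in at least 2 libraries, and this choice can itself favour regions with many sites just past that limit. The shares below are therefore a description. Only 2 libraries had a summit at 47.8% of dense sites, against 24.7% of other sites, and all 6 at 11.6% against 18.6%. Near coding TSSs, 33.3% of dense and 17.1% of other sites were seen in only 2 libraries, and 25.4% and 24.3% in all 6. Over 1 kb from them, 56.4% and 40.04% were seen in only 2 libraries and 3.54% and 7.28% in all 6. At least 1 site in all 6 libraries was found in 292 of the 440 regions, and 352 had some summit of every library. WT replicate 2, the shortest list with 5015 summits on these chromosomes, had a summit in 358 regions, WT replicates 1 and 3 in 439 and 427, and each SLK-KO library in 439. When regions were rebuilt from 5 libraries, the 280 to 417 regions found covered 0.200% to 0.291% of the chromosomes and held 9.38% to 16.6% of the summits of the library left out.

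Summits in dense regions were among both the strongest and the weakest of their lists. Of the 100 best-scored summits of each POL2 list, 25% to 28% lay in dense regions. The best median of the best rank was that of MALAT1, an abundant nuclear non-coding RNA (chr11:65491761-65499109, 6 sites), at 30, 34 and 23 in WT and 23, 23 and 25 in SLK-KO. PABPC1, the cytoplasmic poly(A)-binding protein, followed with 28, 32 and 27 in WT and 32, 28 and 31 in SLK-KO. The region of the clock gene PER1, VAMP2 and SNORD118, the U8 small nucleolar RNA, had its best summits at 41, 40 and 39 in WT and 27, 27 and 28 in SLK-KO, within 1 kb of a non-coding TSS. HEXIM1, an inhibitor of the kinase that releases paused POL2, reached 33, 61 and 33 in WT and 45, 35 and 39 in SLK-KO. The region of STX10 and the immediate early gene IER2 reached 38, 55 and 56 in WT and 37, 53 and 51 in SLK-KO, within 1 kb of a non-coding TSS. These ranks came from 1 site of each region. At MALAT1 the other site shared by all 6 libraries had ranks between 2585 and 13262, and at PER1 between 995 and 2547. HEXIM1 had another strong site, with a median rank of 413.5. In the IER2 region the site within 1 kb of a coding TSS was seen in 4 libraries. Its ranks were 2694 and 1505 in WT and 1162 and 709 in SLK-KO. Over all dense regions the median summit stood at 55.1% to 63.6% of its list from the top, against 47.1% to 48.8% outside, in all 6 libraries.

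DNA under the sites also differed by position. Within 1 kb of a coding TSS, the median GC content of the 201 bp window was 63.2% at 1246 dense sites and 67.7% at 9395 other sites. TATAAA was found at 6.42% against 3.16% of these sites, below the 9.87% and 15.3% in windows 2 kb to the side. The ETS motif CCGGAAG was found at 6.98% against 13.0%, above the 1.69% and 0.671% to the side. Away from coding TSSs the median GC content was 48.8% at 2119 dense and 50.2% at 4683 other sites, and the AP-1 motif TGACTCA was found at 5.85% against 9.74%. In windows 2 kb to the side it was found at 3.59% and 3.31%. The GGAATG motif was found at 12.7% against 15.0% away from coding TSSs. Within 1 kb of a coding TSS the direction was the reverse for both motifs. TGACTCA was found there at 4.17% of dense against 2.26% of other sites, and at 2.89% and 2.97% to the side. GGAATG was found there at 8.99% against 6.77%, below the 10.9% and 10.8% to the side. The motifs do not overlap one another, the sites were chosen on POL2 alone, and no test was made of these shares.

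Dense regions overlapped 843 of 19970 protein-coding genes (4.22%), which was 8.99% of the 9381 coding genes with any stitched region. The shares of the gene lists below are given beside that value with no test, and neighbouring genes of a list can share a region. The lists were chosen with earlier results of these data known, so shares above that value are a description and no evidence of enrichment. Of small RNA genes, 67 of 939 small nucleolar RNA genes (7.14%) and 68 of 1877 microRNA genes (3.62%) fell in one. Of those with any stitched region, the shares were 45.0% and 44.7%. Their median lengths in dense regions were 0.087 and 0.0785 kb, against 12.7 kb for coding genes, so these shares are not like for like.

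Replication-dependent histone genes, which supply core and linker histones in S phase, were in dense regions for 19 of the 41 with a stitched region, all in 3 clusters on chromosome 6. The cluster with H1-3 (chr6:26191648-26234908) had 7 sites, of which WT libraries marked 5, 5 and 5 and SLK-KO libraries 7, 7 and 5. The cluster with H2AC14 (chr6:27808181-27838653) had 6 sites, marked 5, 5 and 5 times in WT and 5, 4 and 5 times in SLK-KO. The cluster of H2AC6, H1-4 and H2BC5 (chr6:26124144-26164256) had 11, with 4, 3 and 6 in WT and 8, 5 and 4 in SLK-KO, and reached ranks of 55, 37 and 44 in WT and 51, 44 and 59 in SLK-KO. The first 2 clusters held 5 and 4 sites seen in all 6 libraries, against at most 2 in each of the 4 microRNA host regions described above. No MYC list had a summit in any of the 3. Histone genes are near copies of one another, and how reads with several matches were treated is not given in the sources used here.

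Actin and focal adhesion genes, which tie the cytoskeleton to the matrix, had 16 of 36 in dense regions. FLNA, an actin cross-linker, lay with EMD in a region of 10 sites (chrX:154347669-154379498), 7, 1 and 4 marked in WT and 6, 7 and 8 in SLK-KO. PXN, the scaffold paxillin, touched 3 separate dense regions of 8, 6 and 5 sites. MYH9, the non-muscle myosin heavy chain, had 6 sites, THBS1, thrombospondin, 7, and LAMB3, a laminin chain, was in a region of 15. At LAMB3 the WT libraries marked 6, 0 and 1 sites and the SLK-KO libraries 11, 9 and 11, without overlap. Since the SLK-KO lists are the longer ones, the equal-length counts belong beside them, and these were 1, 0 and 1 in WT and 2, 1 and 1 in SLK-KO, with overlap. CFL1, PFN1, TLN1, TPM4 and PLAU were also in dense regions.

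Immediate early genes, switched on within minutes of a growth signal, had 9 of 26: ATF3, FOSB, FOSL1, IER2, IER5, JUNB, KLF10, MCL1 and ZFP36. JUNB reached ranks of 45, 85 and 64 in WT and 67, 61 and 58 in SLK-KO, and FOSL1 74, 744 and 58 in WT and 96, 72 and 103 in SLK-KO. Among targets of the Hippo pathway, which links cell contact to the TEAD factors, 7 of 20 were in dense regions, namely AJUBA, AMOTL2, ASAP1, AXL, CRIM1, MYOF and TEAD1. CRIM1 only overlapped a region of 17 sites that all lay within 1 kb of the span of FEZ2, and no TSS of CRIM1 was within 1 kb of that region. The region was marked at 7, 4 and 10 sites in WT and 16, 10 and 7 in SLK-KO. AMOTL2 had 11 sites with best ranks of 342, 228 and 339 in WT and 255, 235 and 221 in SLK-KO. Of heat shock genes, 5 of 16 were in dense regions (CALR, DNAJB1, HSP90AA1, HSP90AB1 and HSPA5), and of glycolysis genes 3 of 14 (ALDOA, ENO1 and PKM). Of 8 nuclear architectural non-coding RNAs, 1 of the 6 with a stitched region, MALAT1, was in one. So were 6 of the 44 entries of the small nuclear RNA list with a stitched region. These were RNU6-2, RNU6-247P, RNU6-31P, RNU6-483P, RNU7-140P and RNU7-160P, and by symbol all but RNU6-2 are pseudogenes. Translation and ribosomal genes had 27 of 82.

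**Figure D2:**
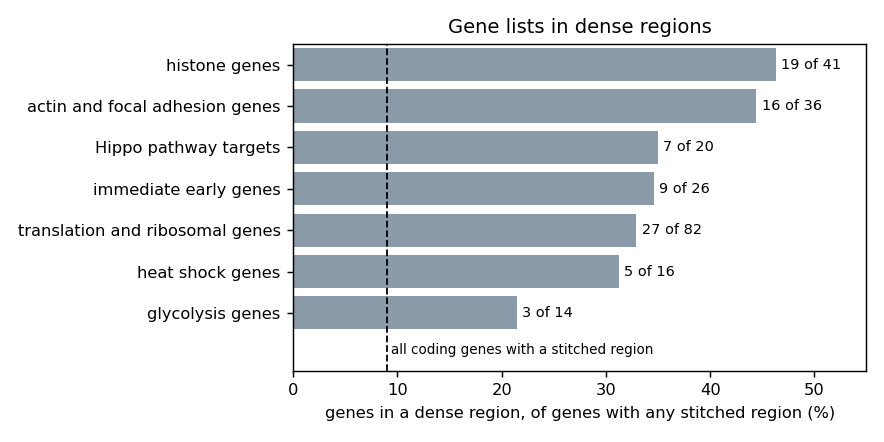
Share of the genes of each list that overlap a dense region, of those that overlap any stitched region, for 7 lists, with the counts at the bars. The dashed line is the 8.99% of all coding genes with a stitched region, and the bars run from 3 of 14 for glycolysis to 19 of 41 for histone genes. The lists were chosen with earlier results of these data known, and no difference from the line was tested.

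The cell line was checked against its markers. Any stitched region, dense or not, overlapped 4 of 6 epithelial genes (KRT8, KRT18, KRT19 and EPCAM, not CDH1 or KRT5), 3 of 3 mesenchymal genes, and 3 of 7 prostate luminal and androgen-response genes, with none at KLK2, KLK3 or FOLH1. Of markers of other cell types 1 of 4 was overlapped, the endothelial gene PECAM1. No marker of any of these lists was in a dense region. A list of summits cannot show whether SLK was lost, and SLK was in no dense region. Within its span and 1 kb around it the POL2 lists had 1, 0 and 1 summits in WT and 1, 1 and 2 in SLK-KO, and the MYC lists had 0 in all 6.

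The POL2 summits of WT fell into dense regions more often than those of SLK-KO once lists of equal length were compared. Of the 5015 best-scored summits, 13.0%, 20.02% and 15.2% lay in dense regions in WT (16.1% ± 3.61, SD, n = 3) and 11.9%, 12.3% and 12.3% in SLK-KO (12.2% ± 0.220, SD, n = 3). Every WT library was above every SLK-KO library. The difference was -3.87 percentage points. It is a description with no test, since the regions were built from these same 6 lists. Wilson 95% intervals, which cover counting error only, were 12.1% to 13.9% for the lowest WT and 11.5% to 13.3% for the highest SLK-KO library and overlapped. The rule pooled the 6 lists without regard to genotype, and sites in at least 2 libraries of 1 genotype numbered 7748 in WT and 13881 in SLK-KO.

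The size of that difference rested on WT replicate 2, whose 5015 summits were its whole list, while the others gave 26.4% to 50.7% of theirs. With regions rebuilt and tested without it the difference was -1.63 points. With cuts chosen after seeing the data, the 1000 best summits gave 23.6% to 24.5% in WT and 22.7% to 23.3% in SLK-KO, and the 3000 best 15.0% to 18.1% and 14.2% to 14.5%. Neither pair of ranges overlapped. With whole lists they did, at 15.9%, 20.02% and 19.5% in WT and 15.5%, 16.7% and 16.8% in SLK-KO.

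**Figure D3:**
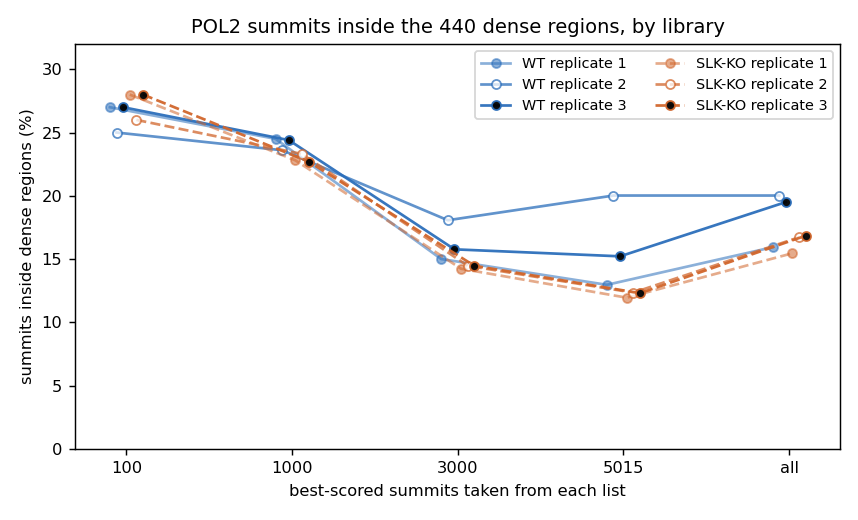
Percent of POL2 summits inside the 440 dense regions against the number of best-scored summits taken from each list, 1 line per library (WT solid blue, SLK-KO dashed orange). At 1000, 3000 and 5015 summits the 3 WT libraries lie above the 3 SLK-KO libraries, and at 100 and with whole lists the groups overlap.

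Region by region, the direction depended on list length. Counted on whole lists, every SLK-KO library marked more sites than every WT library in 64 of 440 dense regions (14.5%), against 10.5% of the 2727 stitched regions of 2 to 4 sites. The reverse was seen in 1 (0.227%), against 0.147%. Counted on lists of equal length, SLK-KO was above in 7 (1.59%), against 2.49%, and WT in 24 (5.45%), against 1.58%. Leaving WT replicate 2 out of that count gave 11 and 33 regions (2.5% and 7.5%), against 3.26% and 3.41%. Regions with more sites offer more room for a difference, and the shares of dense and smaller regions are set side by side with no test.

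Regions with a large excess in SLK-KO at equal length included FAM174B with CHASERR, CXCL2 with MTHFD2L, and ANKRD11 with SPG7, each of 5 sites. In the FAM174B and CHASERR region (chr15:92804081-92832017), where CHASERR is a non-coding RNA, the equal-length lists marked 0, 0 and 0 sites in WT and 3, 3 and 1 in SLK-KO. The whole lists marked 5, 0 and 1 in WT and 4, 5 and 5 in SLK-KO, and the best ranks were 5279 and 7971 in the WT libraries with a summit and 1563, 1244 and 1611 in SLK-KO. CXCL2 encodes a chemokine that draws neutrophils (chr4:74096624-74117499). There the equal-length lists marked 1, 1 and 1 sites in WT and 3, 2 and 2 in SLK-KO, and the best ranks were 1111, 1178 and 1980 in WT and 521, 496 and 717 in SLK-KO. FOSB with ERCC1 and PFDN1 were also among the 7.

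The largest excess in WT was in a region on chromosome 22 that overlapped no coding gene (chr22:30192753-30210777). Its nearest coding TSS, that of LIF, was 35962 bp away, and most of its sites lay in introns of non-coding genes or near a non-coding TSS. Of its 7 sites 3, 5 and 4 were marked at equal length in WT and 2, 0 and 0 in SLK-KO, with best ranks of 2162, 511 and 472 against 3444, 7611 and 7064. A region 38952 bp from a TSS of SPTSSB (chr3:161411832-161421207) had 2, 3 and 2 of its 5 sites marked at equal length in WT and 0 in each SLK-KO library, against 2, 3 and 4 and 3, 4 and 3 in whole lists. PLEC, the cytoskeletal linker plectin on chromosome 8, overlapped 2 dense regions, and the one away from its start sites was the single dense region with no SLK-KO summit in whole lists. Its 5 sites were marked 1, 5 and 4 times in WT and 0 times in each SLK-KO library, and each was seen in only 2 libraries. At PSMC3 and SLC39A13 (chr11:47408135-47426352) 2, 2 and 2 sites were marked at equal length in WT and 0 in SLK-KO, against 4, 2 and 3 and 2, 3 and 4 in whole lists. The 24 regions also held JAG1, WWTR1, F2RL1, RIPK4, KRT7, NFE2L2 and NCL. Each was picked here for its difference, so these values are a description.

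**Figure D4:**
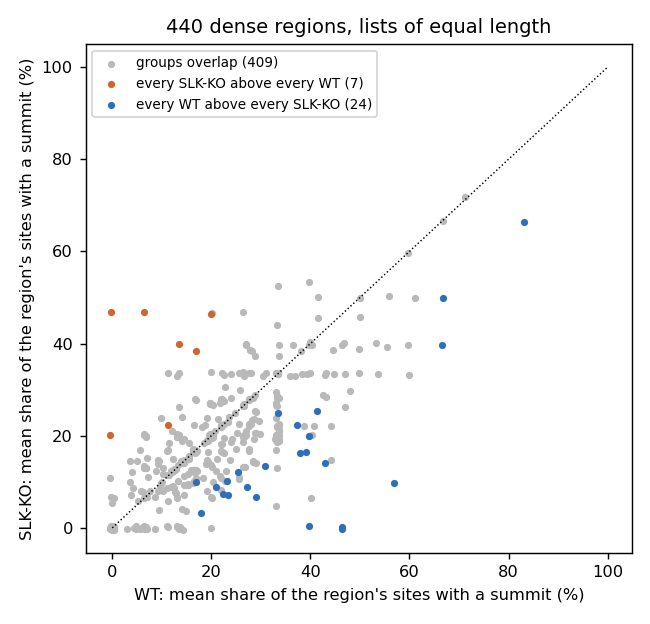
Each point is 1 of the 440 dense regions, with the mean share of its sites that have a summit in WT (x axis, %) and SLK-KO (y axis, %) at equal list length, moved by up to 0.4 percentage points so that points do not hide one another. Blue points are the 24 regions with every WT library above every SLK-KO library and orange points the 7 with the reverse.

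Built from 1 genotype alone, the same rule gave 33 dense regions from the 3 WT lists and 194 from the 3 SLK-KO lists. A dense region of the other genotype was overlapped by 18 on each side, which is 54.5% of the WT and 9.28% of the SLK-KO regions. A stitched region of the other genotype with any number of sites was overlapped by 32 of the 33 WT and 183 of the 194 SLK-KO regions. The SLK-KO lists gave 13881 sites in at least 2 libraries, against 7748 in WT. With lists of equal length 3 and 1 were found.

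MYC lists, which took no part in choosing the regions, had a summit in 170 of the 440 (38.6%). Summits came from SLK-KO lists only in 106, from WT lists only in 2 and from both in 62. The SLK-KO lists were the longer ones, with 1212, 1413 and 976 summits on these chromosomes, against 352, 192 and 261 in WT. This split was not made at equal list length, so it cannot be read apart from list length. WT lists had summits in 50, 29 and 35 regions and SLK-KO lists in 113, 128 and 92. MYC was found in 20% of regions with no coding gene, 30.3% of those with 1 and 49.3% of those with 2 or more. Of all MYC summits 15.6%, 17.7% and 13.8% in WT (15.7% ± 1.96, SD, n = 3) and 11.1%, 10.9% and 11.99% in SLK-KO (11.3% ± 0.572, SD, n = 3) lay in dense regions. The ranges did not overlap (difference -4.37 points, exact two-sided permutation p = 0.1, the smallest that 3 against 3 libraries allow, adjusted 0.1). With regions built without WT POL2 replicate 1 the difference was -2.32 points, and without SLK-KO POL2 replicate 1 it was -2.60. When each MYC list was cut to its best 192, the values were 18.2%, 17.7% and 12.5% in WT and 16.1%, 14.6% and 16.7% in SLK-KO, a difference of -0.347 points (exact permutation p = 1). At equal length the groups overlapped.

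Whether a POL2 site carried MYC depended on the kind of site. Over all sites, a MYC summit lay within 250 bp of 0.911% ± 0.276 of dense and 1.07% ± 0.357 of other sites in WT (SD, n = 3), and of 3.03% ± 0.360 and 4.72% ± 0.849 in SLK-KO (SD, n = 3). Dense sites were lower in 6 of 6 MYC libraries, with a mean difference of -0.921 points (exact sign-flip permutation p = 0.03125, adjusted 0.1), which missed the threshold after adjustment. Among sites within 1 kb of a coding TSS the direction was the reverse. There MYC lay at 2.14% ± 0.746 of dense and 1.43% ± 0.487 of other sites in WT and at 6.45% ± 0.888 and 6.05% ± 1.01 in SLK-KO (SD, n = 3 each). Dense promoter sites were higher in 6 of 6 libraries by 0.554 points (exact sign-flip permutation p = 0.03125). That p was not adjusted and is the smallest that 6 libraries allow. All 6 MYC lists came from PC-3 cells and were scored on the same sites. Over 1 kb from any coding TSS dense sites were lower in 6 of 6, at a mean of 0.606% against 1.19%. Since dense regions hold fewer promoter sites, the value over all sites mixes these classes in different proportions. Among sites in all 6 POL2 libraries MYC was at a mean of 8.48% of dense and 6.32% of other sites, higher in 6 of 6. Among promoter sites in all 6, a class chosen after seeing the data, it was at 9.34% and 6.79%, again higher in 6 of 6 libraries.

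**Figure D5:**
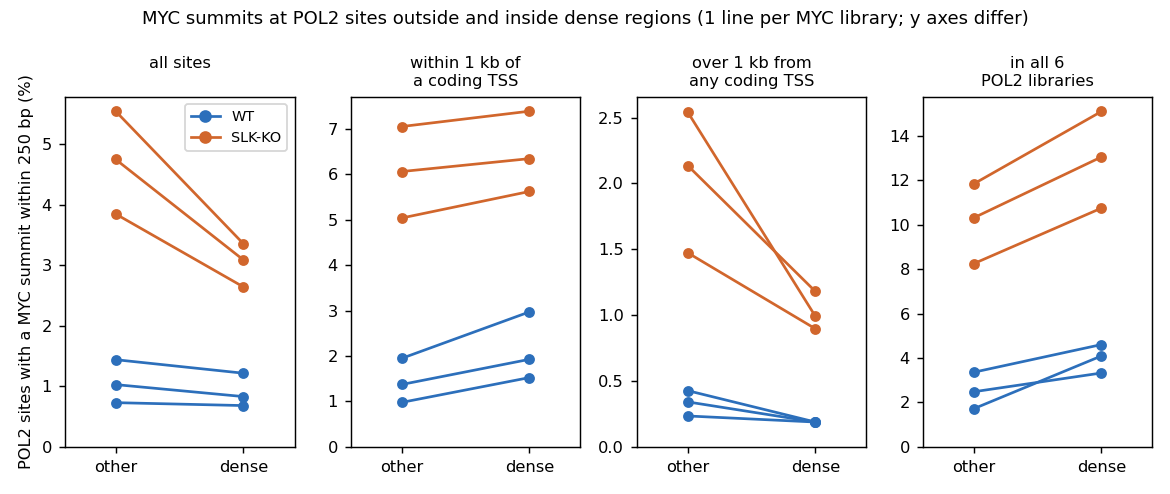
Percent of POL2 sites with a MYC summit within 250 bp, outside (other) and inside (dense) the dense regions, 1 line per MYC library (WT blue, SLK-KO orange), with a y axis of its own for each class of sites. All 6 lines fall over all sites and over sites away from coding TSSs, and all 6 rise near coding TSSs and at sites in all 6 POL2 libraries.

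Many dense regions with genes of translation had a MYC summit. Of the 26 dense regions that held a gene of the translation and ribosomal list, 22 (84.6%) had a MYC summit and 6 had one in all 6 lists, against 38.6% and 18 of all 440 regions. Genes of the list outside dense regions often had MYC too. A MYC summit lay in or within 1 kb of 23 of 27 list genes in dense regions and 36 of 55 in other stitched regions, and of 279 of 843 (33.1%) and 1670 of 8538 (19.6%) coding genes as a whole. No difference was tested, and the list was chosen with earlier results of these data known. RPL3, with 6 POL2 sites, was in 1 of the 4 regions of the list with no MYC summit. Regions with a small nucleolar RNA gene had MYC in 19 of 29, 8 of them in all 6 lists, regions with a microRNA gene in 30 of 58 and the 3 histone regions in 0.

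The 18 regions with a MYC summit in all 6 lists included those of COX20 and HNRNPU, ODC1 (the first enzyme of polyamine synthesis) and SRSF7 (a splicing factor). Also among them were the regions of NCL (nucleolin), RPSA, RPL14, GNL3 (a nucleolar GTPase), SNHG26, MCM7, RECQL4, HNRNPF and RPS24. Further ones were those of GCN1 with RPLP0 and PXN, RAN (the GTPase of nuclear transport), SNHG16, PPAN with EIF3G, and PRMT1. The summit shared by all lists need not lie at the gene named. The region of RECQL4 also overlapped PPP1R16A, GPT, MFSD3, LRRC14, LRRC24 and C8orf82. It had 1, 2 and 2 MYC summits in WT and 2, 2 and 2 in SLK-KO. The MYC site that all lists shared ranked 5, 6 and 6 in WT and 12, 10 and 8 in SLK-KO, and it was not assigned to any 1 of these genes. MCM7, a subunit of the replicative helicase and host of miR-25, miR-93 and miR-106b, lay with COPS6 and ZNF3 (chr7:100081658-100101122). Its 8 POL2 sites were marked 6, 3 and 3 times in WT and 5, 4 and 7 times in SLK-KO, and it had 2, 2 and 1 MYC summits in WT and 2, 2 and 2 in SLK-KO. The MYC site there that every list shared ranked 45, 20 and 20 in WT and 30, 36 and 60 in SLK-KO. The region of GCN1, PXN and RPLP0, a protein of the ribosomal stalk, had the best median of the best POL2 rank among these regions. Its best ranks were 48, 54 and 61 in WT and 54, 64 and 54 in SLK-KO. A MYC summit at that best-ranked POL2 site was in 4 lists, of which only replicate 2 was WT. The MYC site in all 6 lists (chr12:120194711-120194911) lay elsewhere in the region. The region with HDGF and PRCC (chr1:156728565-156752097) had 2, 1 and 0 MYC summits in WT and 2, 2 and 4 in SLK-KO.

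The second MYC site of the MCM7 region is shown as an example without the E-box. It had a summit in 5 of 6 lists, at ranks of 103 and 155 in WT and 421, 145 and 266 in SLK-KO. Its window, 100 bp to each side on the plus strand of GRCh38 with no annotated UTR, held no CACGTG, and so it has no capitals.
MYC site in the MCM7 region (chr7:100081862-100082062): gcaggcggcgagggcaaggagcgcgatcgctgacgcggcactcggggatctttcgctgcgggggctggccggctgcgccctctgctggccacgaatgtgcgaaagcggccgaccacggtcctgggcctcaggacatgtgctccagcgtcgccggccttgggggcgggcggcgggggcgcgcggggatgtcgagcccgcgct

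In general CACGTG lay within 100 bp of 38.2%, 35.3% and 38.9% of the MYC summits inside dense regions in WT and of 30.4%, 30.5% and 28.2% in SLK-KO. Outside them the shares were 41.1%, 47.5% and 44.4% in WT and 31.0%, 29.3% and 31.1% in SLK-KO. They were lower inside in 5 of 6 libraries, with a mean difference of -3.82 points (exact sign-flip permutation p = 0.09375, adjusted 0.1). With 34 to 154 summits inside per list, each share had a Wilson 95% interval wider than that difference, for example 26.5% to 51.4% for the first WT library. Near a coding TSS lay 75.6% to 92.7% of MYC summits inside and 77.3% to 86.7% outside, so for MYC, unlike POL2, dense regions did not hold fewer promoter summits in every library.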

How the data were processed

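ChIP-seq summit lists of 6 MYC and 6 POL2 libraries of PC-3 cells were analysed. The reads (paired, 50 bp) went through nf-core/chipseq 2.1.0 with GRCh38.p14 per the series' design text, and the submitters' processing notes name BWA 0.7.18-r1243 and MACS3 3.0.1. Each deposited list gives summits with a score, read as −log10 of the q-value in that library because the lowest score of all lists, 1.30169, lay just above 1.30103, −log10 of 0.05. The scores were the authors' own and were used only to rank summits within a list. Control libraries and caller options are not given in the sources used here. Read depth is unknown, so a longer list may be a deeper library, and genotypes were compared also at equal list length (5015 POL2 and 192 MYC summits).

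Sites, stitching and dense regions were computed as the opening describes, with GENCODE release 44 for genes and GRCh38 for sequence. MYC shares were tested between genotypes by exact permutation (two-sided) over libraries, and dense with other sites by exact sign flips over the 6 MYC libraries, with Benjamini-Hochberg adjustment over 4 tests. The fourth was the POL2 share, which is given as a description only because the regions were chosen on the POL2 lists. Region building and tests were tested on simulated data. Alternatives covered distances, library and site minimums, scores, list length, site classes, pairing by replicate number and omission of single libraries. Named regions were those with most sites, longest, most closely packed, best ranked, richest in MYC, most different between genotypes and largest without a coding gene, and members of fixed gene lists. A few regions, genes and sequences that met these rules are not reported here. The members and lists were chosen with earlier results of these data known, and the motifs and the small RNA classes after values were seen. Scripts ran under Python 3.11.15 with pysam 0.24.0 for sequence, pandas 2.3.3 and numpy 2.4.6 for tables, scipy 1.17.1 for intervals and matplotlib 3.10.9 for plots, after indexing with samtools 1.23.1.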

Additional observations from a re-analysis of the deposited data

How the results depend on the processing

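The number of dense regions depended on the settings. It was 292 with chaining at 100 bp, 126 with sites in at least 3 libraries, 696 with 4 or more sites, 155 with 8 or more, 119 with POL2 scores of at least 5 and 9 when only the 5015 best summits of each list built the regions, and 280 to 417 with a library left out. The POL2 share, a description, ranged from -4.72 to -0.146 points over 19 alternatives and from -4.67 to -1.63 with a library left out. All use regions built from the same lists, so they give no independent support. The MYC share was lower under 22 of 23, from -5.32 to -2.32 with a library left out, and was 0.133 with the 9 regions. It was -0.699 (3 libraries), -0.729 (score 5), -1.85 (100 bp), -1.89 (stitching 5 kb), -2.37 (8 sites) and -0.347 (192 best MYC summits). For the results that follow, on MYC at sites and on CACGTG, the threshold is an unadjusted exact sign-flip p below 0.05, and no alternative was adjusted. MYC at dense against other sites was 0.554, 2.16 and 2.54 points for promoter sites, sites in all 6 libraries and both together. It lost the threshold at -0.478 (100 bp), -0.609 (stitching 25 kb), -0.917 (score 5), -0.298 (the 9 regions) and -0.874 (window of 1000 bp), and ranged from -1.10 to -0.638 with a library left out. Its unadjusted p stayed below the threshold only without WT or SLK-KO POL2 replicate 1, and 5 MYC libraries cannot give a p below 0.0625. CACGTG was -6.74 (500 bp), -13.2 (3 libraries), -7.09 (8 sites) and -15.6 (score 5), each past the threshold, -1.54 (4 sites) and -2.54 (stitching 25 kb), neither past it, 28.0 with the 9 regions, and -8.62 to -2.15 with a library left out. It was -8.62, -7.99 and -5.59 without WT POL2 replicate 1, SLK-KO POL2 replicate 1 and SLK-KO POL2 replicate 3, each past the threshold, -2.53 without WT POL2 replicate 3 and -2.15 without WT MYC replicate 2. With same-numbered libraries as a replicate block, the POL2 and MYC shares stayed at -3.87 and -4.37 (for MYC, exact sign-flip p = 0.25, which 3 pairs cannot go below). Deviations of same-numbered POL2 libraries correlated at 0.0783, 0.00648 and 0.0196. These values were set beside no differently numbered libraries, so whether the numbers pair the libraries was not tested. Summit lists hold no depth, and peaks of weak libraries can be missing.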
